A study of Homo sapiens with 9 samples.

Results

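The genes described here are 10 that encode proteins of the actin cytoskeleton: CALD1, LSP1, TPM1, TPM2, TPM4, MYL9, TAGLN, TAGLN2, ACTN1 and FLNA, out of 35762 gene symbols in the table. They were chosen by symbol, with their values in these libraries already known, so their levels and differences between days are a description and carry no test. All 9 libraries came from TYUC-1, a cell line labelled as neuroendocrine esophageal carcinoma and kept in suspension culture. The libraries fell into 3 groups of 3 biological replicates, sampled on day 0, day 3 or day 6 of treatment with EPZ-6438 (tazemetostat), which inhibits the histone methyltransferase EZH2. The labels name EPZ-6438 for every library, and the protocol names 2 uM of it or DMSO without saying which the day 0 cells received. With no vehicle library from day 3 or day 6 among the samples, exposure and time in culture cannot be told apart. RNA was selected by its poly-A tail, and libraries held 21638874 to 31235055 estimated counts, so that 3 counts, the most that a count of 0 allows, corresponded to 0.098 to 0.141 CPM (counts per 1000000 scaled counts) in a library.

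Actin filaments are polymers that give a cell its shape and, together with myosin II, its contractile force. Tropomyosins lie along the filament and set which other proteins can bind it, caldesmon and transgelin bind filaments in smooth muscle and many other cells, and alpha-actinin and filamin tie filaments into bundles and networks. Many of these genes are known targets of serum response factor (SRF), which binds the CArG box, and of YAP and TEAD factors. EZH2 is the enzyme of a Polycomb complex that methylates histone H3 and keeps many developmental genes silent.

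The 10 genes fell into 2 kinds by level. TAGLN2, ACTN1, TPM4, FLNA, TPM2 and TPM1 were abundant on every day, between 61.7 and 489.7 CPM in any library, and their means differed between days by small amounts. CALD1, LSP1 and TAGLN were at or below 1 CPM on day 0, and their levels were higher on day 6 in every library. MYL9 had 0 counts in all 9 libraries. The group label of contractile genes therefore covers abundant genes, genes scarce on day 0 (CALD1, LSP1 and TAGLN) and an undetected gene (MYL9). No single direction described all 10.

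Promoter sequence is shown first for CALD1, whose counts differed most between days among the genes with a window in the reference, and then for the 3 abundant genes whose windows hold a CArG box. The windows are 300 bases long, 250 before to 50 after an annotated start, from RefSeq on GRCh38.p14, and 7 of the 10 genes had 18 windows there. The motifs below were searched on both strands: the CArG box, CATTCC (bound by TEAD factors), TGANTCA (bound by AP-1) and GGGCGG (bound by SP1). Capitals mark CArG, CATTCC and TGANTCA matches, written as GGAATG where the match is on the other strand, and GGGCGG is left in lower case. Of 35116 windows of all genes, 1.29% held a CArG box, 14.0% CATTCC, 7.71% TGANTCA and 45.0% GGGCGG.
CALD1, chr7:134745217-134745516, plus strand: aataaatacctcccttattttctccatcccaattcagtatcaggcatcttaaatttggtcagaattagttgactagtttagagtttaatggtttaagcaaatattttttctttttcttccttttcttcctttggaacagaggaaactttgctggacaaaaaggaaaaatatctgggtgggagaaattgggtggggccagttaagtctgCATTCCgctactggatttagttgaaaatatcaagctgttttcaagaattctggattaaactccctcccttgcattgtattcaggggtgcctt
CALD1, chr7:134779384-134779683, plus strand: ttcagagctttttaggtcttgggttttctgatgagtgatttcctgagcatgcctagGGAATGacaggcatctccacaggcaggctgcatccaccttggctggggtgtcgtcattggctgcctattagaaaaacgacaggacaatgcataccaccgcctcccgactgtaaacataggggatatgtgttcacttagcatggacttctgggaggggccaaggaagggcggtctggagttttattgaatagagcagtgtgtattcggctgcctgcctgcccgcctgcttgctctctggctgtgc
TPM4, chr19:16067288-16067587, plus strand: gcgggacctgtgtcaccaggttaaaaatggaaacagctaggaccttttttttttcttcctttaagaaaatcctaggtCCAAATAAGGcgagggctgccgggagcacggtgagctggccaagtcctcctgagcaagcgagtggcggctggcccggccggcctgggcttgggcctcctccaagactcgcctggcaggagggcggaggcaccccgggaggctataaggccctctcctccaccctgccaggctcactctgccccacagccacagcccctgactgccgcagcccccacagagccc
ACTN1, chr14:68977517-68977816, minus strand: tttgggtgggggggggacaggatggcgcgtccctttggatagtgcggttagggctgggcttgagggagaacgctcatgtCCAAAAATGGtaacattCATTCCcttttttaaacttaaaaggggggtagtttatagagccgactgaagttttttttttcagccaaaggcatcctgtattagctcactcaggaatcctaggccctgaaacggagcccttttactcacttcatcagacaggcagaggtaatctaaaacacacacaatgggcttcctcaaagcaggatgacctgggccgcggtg
FLNA, chrX:154374585-154374884, minus strand: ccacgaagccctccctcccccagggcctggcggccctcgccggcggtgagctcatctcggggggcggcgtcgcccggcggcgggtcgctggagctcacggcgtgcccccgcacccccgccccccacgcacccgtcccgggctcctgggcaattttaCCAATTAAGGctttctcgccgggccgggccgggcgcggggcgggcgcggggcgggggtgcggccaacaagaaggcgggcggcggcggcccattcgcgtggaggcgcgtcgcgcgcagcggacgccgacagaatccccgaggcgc

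None of the 4 CALD1 windows held a CArG box. In the first window above its CATTCC match begins 42 bases before the start, and in the next the match on the other strand begins 194 bases before it. The CALD1 windows were poor in CpG, with an observed over expected CpG ratio of 0.19, 0.0976, 0.341 and 0.443, where the median of all windows was 0.579 and the quartiles 0.229 and 0.856. The window of TPM1 had a ratio of 0.854 and that of FLNA 1.02. The CArG matches begin 173 bases before the start in the TPM4 window, 171 in the ACTN1 window and 94 in the FLNA window. The other TPM4 windows and the other ACTN1 windows held no CArG box, and which start the cells used is not known from gene counts. TGANTCA matches lay in windows not shown. In the CALD1 window at chr7:134711249-134711548 the match begins 126 bases before the start. In the TAGLN2 windows at chr1:159924546-159924845 and chr1:159925458-159925757 it begins 49 bases before and 23 bases after the start. A match is a stretch of letters in a window and was not measured as a bound site.

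One library stood apart before any comparison. Within each day, log2 levels of 10573 annotated genes averaging 5 CPM or more were set against the mean of the other libraries of that day, and the SD of these deviations was 0.372 in replicate 2 of day 0, against 0.104 to 0.223 in the other 8 libraries. In that library the median deviation was 0.32 in the shortest 2115 transcripts and -0.16 in the longest 2115, and 0.23 in the 2115 lowest in GC and -0.07 in the 2115 highest. FLNA, whose coding transcripts average 8223 bases, had a deviation of -0.98 there, and 1.13% of genes were as low or lower. TAGLN2, TPM1 and TPM4 deviated by 0.30, 0.23 and 0.22, TPM2 by 0.05 and ACTN1 by -0.14. For the 9 genes with counts, fitted values against day 0 are given below with and without this library.

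**Figure D1:**
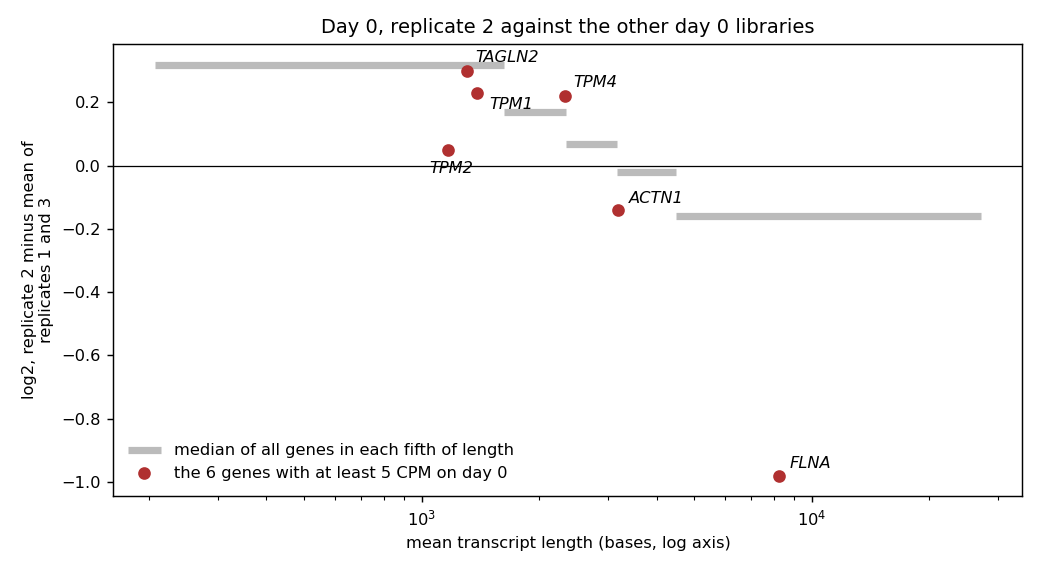
Deviation of day 0 replicate 2 from the mean of day 0 replicates 1 and 3, in log2 units (vertical axis), against mean transcript length in bases on a log axis (horizontal axis). Grey bars are medians of all genes in 5 equal classes of length, between 0.32 and -0.16, and red points are the 6 genes with at least 5 CPM on day 0, of which FLNA lies lowest at -0.98.

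CALD1 encodes caldesmon, which binds actin, tropomyosin and calmodulin and restrains the ATPase of actomyosin. It lies on the plus strand at chr7:134744252-134970728 on GRCh38, as do all gene coordinates here, from GENCODE release 29. Its 3 libraries on day 0 had 3, 1 and 5 counts, its libraries on day 3 had 8, 9 and 10, and its libraries on day 6 had 187, 120 and 126. In CPM these were 0.098, 0.0425 and 0.235 on day 0, then 0.298, 0.301 and 0.435 on day 3, then 6.29, 5.17 and 5.43 on day 6. No library of one day overlapped with another day, and the larger step lay between day 3 and day 6. The 3 libraries of a day pooled gave a ratio of 47.6 for day 6 over day 0, with an exact 95% interval of 24.9 to 105 for 2 Poisson counts, and of 2.84 (1.3 to 6.86) for day 3 over day 0. These intervals cover counting error only. The fitted log2 fold change was 5.50 ± 0.34 (SE) for day 6 over day 0, 1.47 ± 0.47 for day 3 over day 0 and 4.03 ± 0.28 for day 6 over day 3. CALD1 passed the filter on low counts only through its day 6 libraries. With 1 library left out, the value for day 3 over day 0 ranged between 1.10, without replicate 2 of day 0, and 2.13, without replicate 3 of day 0. Its call on day 3 against day 0 was lost without replicate 1 of day 0, without replicate 2 of day 0 or without replicate 3 of day 3. Without replicate 2 of day 0 the value for day 6 over day 0 was 5.13.

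LSP1, at chr11:1852970-1892267 on the plus strand, encodes an F-actin-binding protein known from leukocytes. The counts were 6, 2 and 5 on day 0, then 65, 53 and 46 on day 3, then 549, 468 and 490 on day 6. In CPM they were 0.196, 0.0851 and 0.235 on day 0, then 2.42, 1.77 and 2.0 on day 3, then 18.5, 20.2 and 21.1 on day 6. The days did not overlap, and LSP1 counts were higher at each later day. Pooled counts gave a ratio of 115 (66.9 to 216) for day 6 over day 0 and of 11.9 (6.79 to 22.9) for day 3 over day 0. The fitted log2 fold changes were 6.81 ± 0.22 (SE) for day 6 over day 0, 3.54 ± 0.27 for day 3 over day 0 and 3.27 ± 0.15 for day 6 over day 3. With replicate 2 of day 0 left out they were 6.51 for day 6 over day 0 and 3.25 for day 3 over day 0. LSP1 passed the filter on low counts only through its day 3 and day 6 libraries.

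These LSP1 folds may depend on how reads were shared with a copy of the gene. LSP1P4, a transcribed unprocessed pseudogene on the minus strand at chr2:91617160-91659972, is listed apart from LSP1. It had 6.08, 6.47 and 4.84 CPM on day 0, then 5.33, 4.89 and 4.65 on day 3, then 7.0, 8.23 and 7.28 on day 6. On day 0 most counts of the pair were therefore assigned to the pseudogene, and on day 6 most were assigned to LSP1. Counted together, the pair had 6.27, 6.55 and 5.08 CPM on day 0, then 7.75, 6.66 and 6.65 on day 3, then 25.5, 28.4 and 28.4 on day 6. The days still did not overlap. As a single gene the pair had a log2 fold change of 2.19 ± 0.11 (SE) for day 6 over day 0, 0.23 ± 0.12 for day 3 over day 0 and 1.96 ± 0.11 for day 6 over day 3. On day 3 against day 0 the pair was not past the call rule used for LSP1 alone. The sum, chosen after the values were seen, does not depend on how reads were divided between the pair. Its pooled ratio was 4.52 (4.09 to 5.02) for day 6 over day 0 and 1.17 (1.03 to 1.32) for day 3 over day 0, so the fold of LSP1 itself is uncertain.

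TAGLN and TAGLN2 encode transgelins, small calponin-family proteins that bind and bundle actin filaments. TAGLN (SM22) is a classical early marker of smooth muscle, and TAGLN2 is its widely expressed relative. TAGLN, at chr11:117199321-117204782 on the plus strand, had 29, 15 and 20 counts on day 0, then 43, 44 and 38 on day 3, then 55, 34 and 74 on day 6. The CPM were 0.947, 0.638 and 0.94 on day 0, then 1.6, 1.47 and 1.65 on day 3, then 1.85, 1.47 and 3.19 on day 6. Both later days lay above day 0 without overlap, and they overlapped with each other. The fitted log2 fold change was 1.35 ± 0.31 (SE) for day 6 over day 0, 0.89 ± 0.31 for day 3 over day 0 and 0.46 ± 0.28 for day 6 over day 3. Without replicate 3 of day 6, its highest library, the value for day 6 over day 0 was 0.96 and that for day 6 over day 3 was 0.08. Without replicate 2 of day 0 the values were 1.18 for day 6 over day 0 and 0.73 for day 3 over day 0. TAGLN overlaps PCSK7 on the opposite strand, which had a mean of 81.6 CPM on day 0, 76.4 on day 3 and 62.3 on day 6. Whether strand was used in counting is not stated, so reads of the 2 genes may not be told apart and the TAGLN level is uncertain.

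TAGLN2, at chr1:159918107-159925732 on the minus strand, had 400, 489.7 and 397 CPM on day 0, then 380.1, 414 and 419.9 on day 3, then 408, 366 and 410.2 on day 6. The days overlapped throughout, and the fitted log2 fold change was -0.12 ± 0.10 (SE) for day 6 over day 0 and -0.02 without replicate 2 of day 0. TAGLN2 had 221, 249.9 and 129 times as many counts as TAGLN on day 6, and 422, 768 and 422 times as many on day 0, where 768 is replicate 2. The pair of transgelins was thus almost wholly TAGLN2 on every day.

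MYL9, at chr20:36541484-36551447 on the plus strand, encodes a regulatory light chain of myosin II that is abundant in smooth muscle. It had 0 counts in all 9 libraries, which allows up to 0.141 CPM in the shallowest of them, so no fold can be given. Its close relatives MYL12A and MYL12B, named here after their values were seen, were detected in every library. MYL12A averaged 45.0 ± 11.9 CPM on day 0, 40.2 ± 0.958 on day 3 and 38.6 ± 2.74 on day 6 (SD, n = 3 each). MYL12B averaged 105 ± 23.8 CPM on day 0, 87.2 ± 1.73 on day 3 and 87.4 ± 0.221 on day 6. On day 0 the highest value of both was in replicate 2, with 58.6 CPM of MYL12A, against 36.5 and 39.7 in the others, and 133 CPM of MYL12B, against 91.4 and 92.1.

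**Figure D2:**
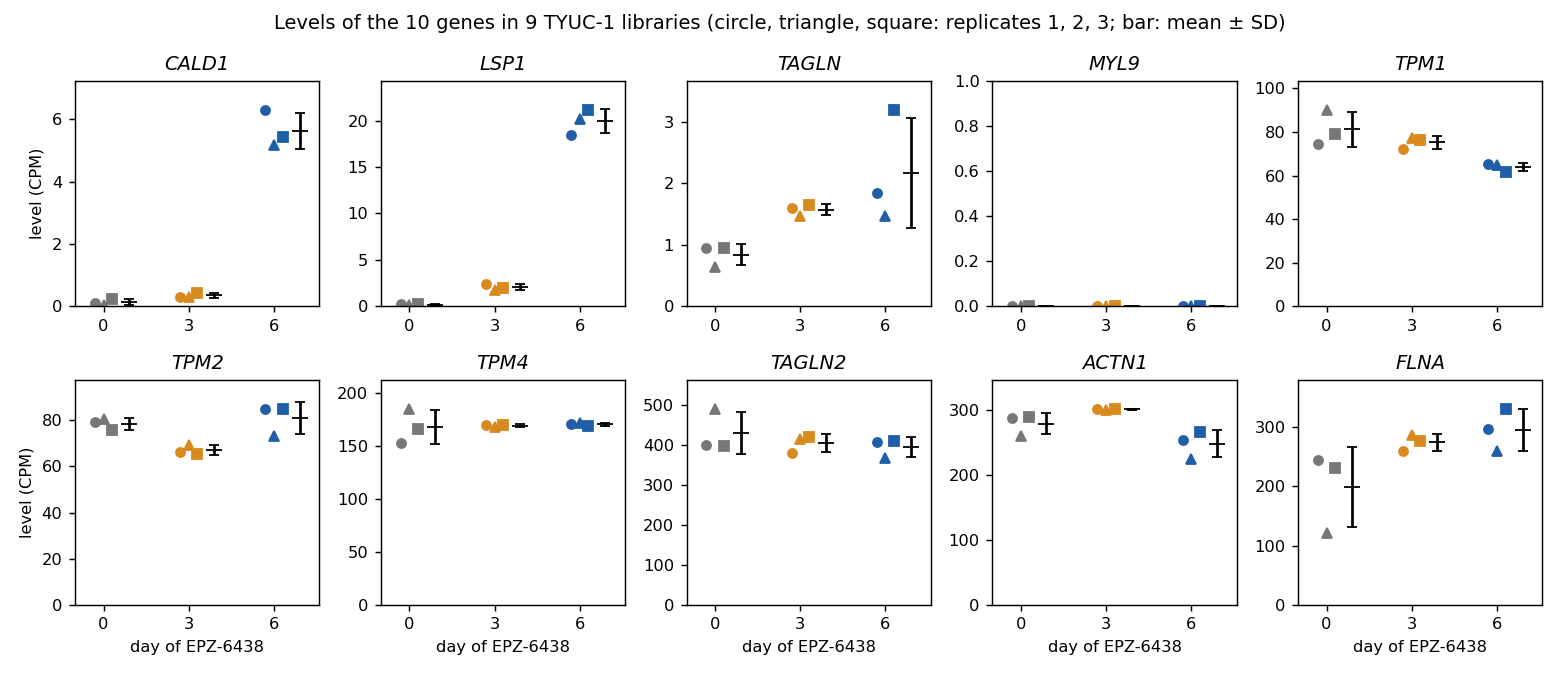
Levels of the 10 genes in CPM (vertical axes, each panel on its own linear scale from 0) on day 0, 3 and 6 (horizontal axes). Each point is a library, with the symbol giving the replicate number, and bars are mean ± SD of 3 libraries; CALD1 and LSP1 reach 5.17 to 6.29 and 18.5 to 21.1 on day 6, MYL9 is at 0, and FLNA has its lowest value, 120.5, in replicate 2 of day 0.

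The tropomyosins TPM1, TPM2 and TPM4 encode coiled-coil proteins that run along the actin filament, each gene giving several isoforms. TPM1, at chr15:63042632-63071915 on the plus strand, had 74.6, 89.9 and 78.9 CPM on day 0, then 72.0, 77.4 and 76.2 on day 3, then 65.2, 65.0 and 61.7 on day 6. Every day 6 library lay below every library of the earlier days, and the fitted log2 fold change was -0.34 ± 0.08 (SE) for day 6 over day 0 and -0.27 without replicate 2 of day 0. TPM2, at chr9:35681992-35690121 on the minus strand, had 79.4, 80.5 and 75.7 CPM on day 0, then 66.4, 69.4 and 65.4 on day 3, then 84.9, 73.1 and 84.9 on day 6. It was lowest on day 3, with log2 fold changes of -0.23 ± 0.08 for day 3 over day 0 and 0.27 ± 0.08 for day 6 over day 3, while day 6 overlapped with day 0. The first of these was -0.22 without replicate 2 of day 0. TPM4, at chr19:16067021-16103005 on the plus strand, had 153, 185 and 166 CPM on day 0, then 170.2, 168 and 169.8 on day 3, then 170.4, 172 and 169 on day 6. Its log2 fold change was 0.02 ± 0.08 for day 6 over day 0, and 0.09 without replicate 2 of day 0, and its days overlapped.

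The mix of tropomyosins is better seen within a library, where a shared scaling factor cancels. TPM2 had 1.06, 0.896 and 0.959 counts per count of TPM1 on day 0, then 0.923, 0.896 and 0.858 on day 3, then 1.3, 1.13 and 1.38 on day 6. TPM4 had 2.06, 2.06 and 2.1 counts per count of TPM1 on day 0, then 2.36, 2.17 and 2.23 on day 3, then 2.61, 2.64 and 2.74 on day 6. The TPM4 to TPM1 ratio did not overlap between any of the days, and on day 0 replicate 2 lay with the other libraries. With TPM3 added and counts divided by mean transcript length, TPM3 made up 54.5% of the 4 tropomyosins on day 0, 53.2% on day 3 and 50.2% on day 6 (means of 3 libraries). TPM4 made up 16.6%, 18.5% and 19.3% on those days, TPM2 15.5%, 14.6% and 18.3%, and TPM1 13.4%, 13.7% and 12.2%. These ratios show unequal change among the genes and not which of them changed.

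ACTN1 and FLNA encode crosslinkers. ACTN1, at chr14:68874143-68979440 on the minus strand, gives alpha-actinin 1, which bundles filaments and anchors them at adhesions. It had 288, 261 and 289 CPM on day 0, then 302, 300.2 and 302 on day 3, then 254, 225 and 266 on day 6. Day 6 lay below day 3 in every library and overlapped with day 0, with log2 fold changes of -0.28 ± 0.08 (SE) for day 6 over day 3, -0.17 ± 0.08 for day 6 over day 0 and 0.11 ± 0.08 for day 3 over day 0. The last 2 were -0.22 and 0.06 without replicate 2 of day 0. The counts of its paralog ACTN4 were 2.04, 2.02 and 2.03 times those of ACTN1 on day 6, and 1.92, 1.69 and 1.93 times on day 0, where 1.69 is replicate 2.

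FLNA, at chrX:154348524-154374638 on the minus strand, gives filamin A, which crosslinks filaments into networks and ties them to integrins. It had 244, 120.5 and 231 CPM on day 0, then 259, 287 and 276 on day 3, then 296, 259 and 330.3 on day 6. Both later days lay above day 0 in every library, but the distance was set largely by replicate 2 of day 0. The fitted log2 fold change was 0.57 ± 0.20 (SE) for day 6 over day 0 and 0.47 ± 0.20 for day 3 over day 0, and without that replicate the values were 0.30 and 0.20.

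**Figure D3:**
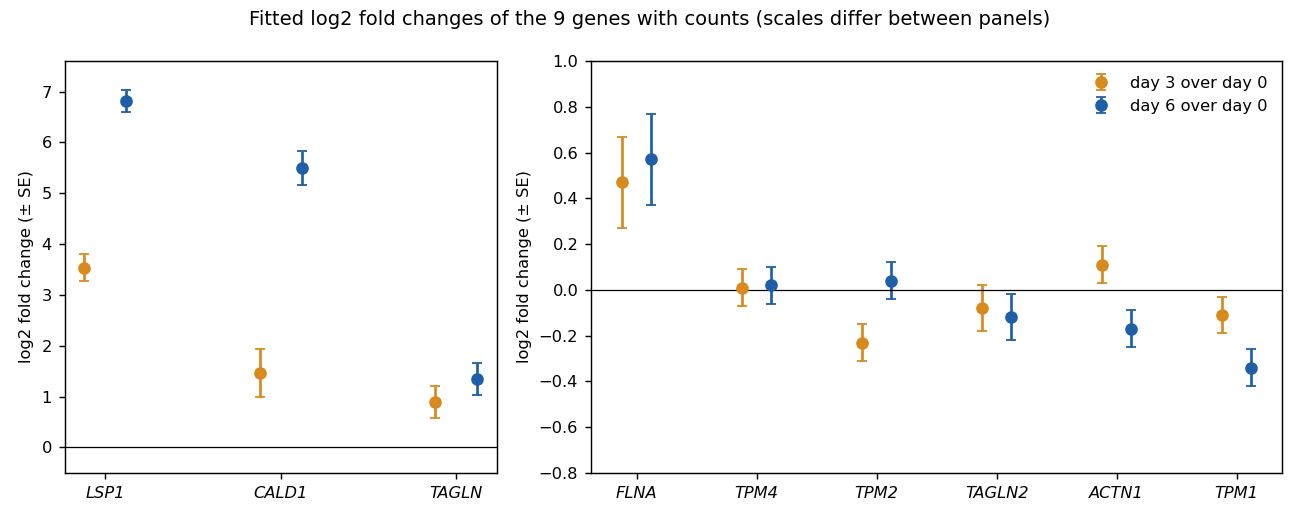
Fitted log2 fold changes (vertical axes, ± SE) of the 9 genes with counts, for day 3 over day 0 in orange and day 6 over day 0 in blue. The left panel holds LSP1, CALD1 and TAGLN, at 6.81, 5.50 and 1.35 on day 6, and the right panel, on a narrower scale, holds the other 6, between -0.34 and 0.57.

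Counted by the call rule used for all genes (edgeR quasi-likelihood test, Benjamini-Hochberg adjusted p under 0.05), 4 of the 9 tested genes were higher and 1 lower on day 6 than on day 0, where 54.6% of all 15345 genes tested were called, 28.9% higher and 25.7% lower. They were CALD1, LSP1, TAGLN and FLNA, with TPM1 lower. On day 3 against day 0, 3 were higher (CALD1, LSP1 and TAGLN) and 1 lower (TPM2), where 40.6% of all genes were called. The LSP1 call on day 3 was lost when its counts were summed with those of LSP1P4. On day 6 against day 3, 3 were higher (CALD1, LSP1 and TPM2) and 1 lower (ACTN1), where 16.3% of all genes were called. The genes were chosen with these contrasts known, so the counts are not evidence about the group. The libraries of the compared days did not overlap for 5 of the 9 on day 6 against day 0, for 6 on day 3 against day 0 and for 5 on day 6 against day 3, where the same was true of 58.7%, 53.8% and 43.5% of all genes. Without replicate 2 of day 0, CALD1 and TAGLN were no longer called on day 3 against day 0, ACTN1 was also called lower on day 6 against day 0, and TPM1 was also called lower on day 6 against day 3. The first 2 contrasts share the day 0 libraries.

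Per kilobase of mean transcript length, the order of the genes was nearly the same on each day. TAGLN2 was first, at 329 CPM per kb on day 0, 310 on day 3 and 303 on day 6. ACTN1 followed at 87.7, 94.7 and 77.9, TPM4 at 72.3, 72.8 and 73.2, TPM2 at 67.3, 57.5 and 69.4, TPM1 at 58.5, 54.2 and 46.1 and FLNA at 24.1, 33.3 and 35.9. TPM4 and TPM2 overlapped on day 0 and on day 6, and ACTN1 and TPM4 overlapped on day 6. The order of the scarce genes differed: TAGLN led them at 0.585 on day 0 and overlapped with LSP1 on day 3, whereas on day 6 LSP1 stood at 9.94, CALD1 at 1.88 and TAGLN at 1.5, the last 2 overlapping. Even on day 6, LSP1 and CALD1 lay below all 6 abundant genes.

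Genes with the most similar course were sought among 11034 other genes averaging 5 CPM or more, by the root mean square, over the 9 libraries, of the difference in log2 CPM after each gene was centred on its day 0 mean. For LSP1 the nearest were MYADM and DPYSL3, both at 0.52 log2 units. MYADM averaged 0.424 CPM on day 0, 6.17 on day 3 and 27.8 on day 6, and DPYSL3 averaged 0.0972, 2.04 and 13.4. For CALD1 the nearest were FBLN1, at 0.58, and CAMK1D, at 0.64. FBLN1 averaged 0.731 CPM on day 0, 2.07 on day 3 and 22.7 on day 6, and CAMK1D averaged 0.59, 3.15 and 21.8. The nearest genes to TAGLN were RUSC2, at 0.20, and LRP4, at 0.23. Those of FLNA were DGKD and ITPR3, both at 0.08, and those of ACTN1 were SGTA and SLC27A4, at 0.04 and 0.05. USP39 and ACTR3B were nearest to TPM1, METTL17 and TTC26 to TPM2, EOLA2 and TMBIM6 to TPM4, and SNRPB and PHB2 to TAGLN2, all within 0.07. The points share libraries, so the day 0 replicate that stood apart is part of each likeness.

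The neighbours of LSP1 on chromosome 11 were looked at after their values were seen, within 200 kb. Troponins are regulators of the thin filament in striated muscle. TNNT3, a troponin T gene 27.3 kb away, had 0 counts in the 3 day 0 libraries, 13, 9 and 9 on day 3, and 154, 120 and 99 on day 6. Against a floor of 3 counts over the day 0 group, TNNT3 was 123-fold higher on day 6 and 9.77-fold higher on day 3. These folds leave out the counting error of the later day. With it included, the lower limits of the exact interval were 99.6 for day 6 over day 0 and 7.49 for day 3 over day 0. SYT8, a synaptotagmin gene 15.4 kb away on the other side, had pooled counts of 81 on day 6 and 4 on day 0, a ratio of 20.0 (7.54 to 75.3), and passed the filter on low counts only through its day 6 libraries. TNNI2, a troponin I gene 11.3 kb away, had 24 pooled counts on day 6 and 2 on day 0, a ratio of 11.9 (2.95 to 104), and did not pass the filter on low counts. Farther out, CTSD and MRPL23 differed much less: CTSD averaged 74.7 CPM on day 6 and 49.4 on day 0 (log2 fold change 0.60, adjusted p = 2.48e-04), and MRPL23 averaged 37.9 and 44.3 (-0.22, adjusted p = 0.0415). Other protein-coding genes within 200 kb of LSP1 stayed at few or no counts and were not tested. PRR33, which overlaps LSP1, had 3 pooled counts on day 6 and 0 on day 0, AC068580.4 had 4 and 2, and KRTAP5-6 had 0 and 2. IFITM10 had 0 counts in all libraries. Around CALD1, the log2 fold changes for day 6 over day 0 were 0.05 for AGBL3, 15.8 kb away (adjusted p = 0.793), -0.22 for BPGM (0.128), -0.15 for CYREN (0.176) and 0.49 for AKR1B15 (0.0557).

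**Figure D4:**
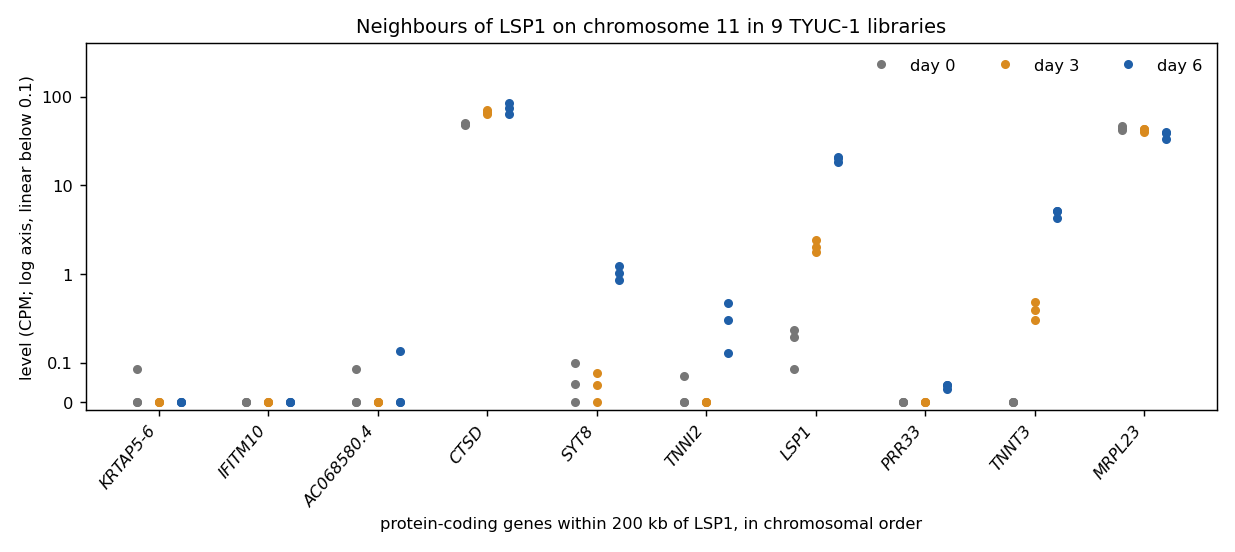
Levels in CPM (vertical axis, logarithmic above 0.1 and linear below) of protein-coding genes within 200 kb of LSP1 on chromosome 11, in chromosomal order (horizontal axis). Each point is a library, grey for day 0, orange for day 3 and blue for day 6; SYT8, TNNI2, LSP1 and TNNT3 have their highest points on day 6, while MRPL23 lies between 33.8 and 46.4.

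The wider actin cytoskeleton was described with 10 lists drawn up by function, 205 genes outside the 10, of which 184 were tested. On day 6 against day 0, 73 of the 184 rose and 32 fell (39.7% and 17.4%), where 28.9% and 25.7% of all genes did. On day 3 against day 0, 57 rose and 13 fell (31.0% and 7.07%), where 22.5% and 18.1% of all genes did. On day 6 against day 3, 31 rose and 15 fell (16.8% and 8.15%), where 11.5% and 4.76% did. Among the 147 that averaged 5 CPM or more, 50 rose and 31 fell on day 6 against day 0 (34.0% and 21.1%), where 22.7% and 34.2% of all such genes did. On day 3 against day 0, 44 of them rose and 13 fell, where 19.3% and 24.1% of all such genes did, and on day 6 against day 3, 20 rose and 15 fell, where 6.92% and 5.96% did. Without replicate 2 of day 0, 186 genes of the lists were tested, and 78 rose and 44 fell on day 6 against day 0 (41.9% and 23.7%), where 31.7% and 29.1% of all genes did. On day 3 against day 0, 70 then rose and 26 fell (37.6% and 14.0%), where 25.1% and 21.6% of all genes did, and on day 6 against day 3, 40 rose and 26 fell (21.5% and 14.0%), where 16.6% and 13.4% did. Of the 73 that rose on day 6 against day 0, 12 had every day 0 library under the level the filter on low counts asked for (0.385 CPM). They passed it only through later days, as did 858 of the 4442 genes that rose in all. Genes with only some day 0 libraries under that level, among them MARCKS and WIPF1, also needed later libraries and are not in these counts. The count that fell on day 3 was 7 or 8 without any 1 library of day 3, and the count that fell on day 6 against day 3 was 4 to 9 without any 1 library of day 3 or day 6. The median log2 fold change of the 184 for day 6 over day 0 was 0.09 and that of all genes 0.01.

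Of the lists, the other thin filament genes had the highest median, 1.29 for day 6 over day 0, and 9 of 12 tested rose while 1 fell, where 28.9% and 25.7% of all genes did. Several that rose are troponins of striated muscle and were scarce. TNNT1 averaged 43.1 ± 3.74 CPM on day 6 and 1.67 ± 0.415 on day 0 (SD, n = 3 each; log2 fold change 4.72, edgeR adjusted p = 1.53e-09). TNNI3 averaged 5.31 ± 0.747 CPM on day 6 and 0.201 ± 0.0848 on day 0, and passed the filter only through later days. CNN3, a calponin found in many cell types, averaged 41.6 ± 1.89 CPM on day 6 and 14.6 ± 2.36 on day 0 (1.52, adjusted p = 3.87e-07). TPM3 fell by 0.32 on the log2 scale (adjusted p = 0.006), to 345 CPM on day 6, against 430.4 on day 0. On day 3 against day 0, 8 of the 12 rose and none fell by edgeR, DESeq2 or limma-voom. By edgeR, 22.5% of all genes rose and 18.1% fell. None of the 12 fell at an unadjusted p under 0.05 either (0 in each case).

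Of 4 tested actins, ACTA2, the smooth muscle actin, rose to 1.75 ± 0.279 CPM on day 6, against 0.197 ± 0.157 on day 0, and likewise passed the filter only through later days. ACTB, the main cytoplasmic actin, fell to 3089 ± 305 CPM on day 6, against 4088 ± 459 on day 0 (-0.40, adjusted p = 0.00641). Actin genes have near-identical coding sequences, so their counts are uncertain. Of 20 genes of myosin II and its regulators, 3 rose on day 6 against day 0 and 1 fell, where 28.9% and 25.7% of all genes did. Without replicate 2 of day 0, 4 rose and 4 fell, where 31.7% and 29.1% of all genes did. MYH14, a nonmuscle myosin heavy chain, rose to 107 ± 7.85 CPM, against 60.0 ± 15.4 on day 0 (0.84, adjusted p = 5.52e-04), and MYL6B and MYL5 rose by 0.32 and 0.61 on that scale. PPP1R12A, the targeting subunit of myosin phosphatase, fell by 0.26 (adjusted p = 0.0319), a call that ended under 5 of its alternatives, among them those without replicate 1 of day 0 (adjusted p = 0.105) and without replicate 3 of day 6 (0.0894).

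Of 26 crosslinkers and bundlers, 12 rose and 5 fell on day 6 (46.2% and 19.2%, against 28.9% and 25.7% of all genes). FSCN1, fascin, which bundles filaments in cell protrusions, averaged 22.4 ± 1.56 CPM on day 0, 93.3 ± 3.98 on day 3 and 141 ± 20.2 on day 6 (log2 fold change 2.65 for day 6 over day 0, adjusted p = 5.08e-09). MARCKS, which binds actin at the membrane, averaged 12.6 CPM on day 6 and 0.348 on day 0 (5.22, adjusted p = 9.63e-09). Its level in replicate 1 of day 0, 0.196 CPM, was under that of the filter on low counts, so MARCKS needed later libraries to pass. PALLD, palladin, rose by 1.30 and PDLIM2 by 1.18 on the log2 scale. Of 28 severing, capping and monomer-binding genes, 9 rose and 8 fell (32.1% and 28.6%), close to the shares of all genes. ADD2, an adducin that caps filaments at the spectrin skeleton, averaged 96.0 ± 3.01 CPM on day 6 and 24.9 ± 2.04 on day 0 (1.94, adjusted p = 4.74e-09). AVIL, advillin, averaged 70.6 ± 3.96 CPM on day 0, 79.8 ± 2.65 on day 3 and 29.4 ± 1.58 on day 6 (-1.26 for day 6 over day 0, adjusted p = 8.75e-08). CAPG and CORO2A rose by 1.45 and 1.28.

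Of 34 nucleators and elongators, 13 rose and 8 fell on day 6 (38.2% and 23.5%, against 28.9% and 25.7% of all genes). EVL, which speeds filament growth, averaged 6.19 ± 0.50 CPM on day 0, 15.0 ± 1.22 on day 3 and 56.5 ± 4.39 on day 6 (3.19 for day 6 over day 0, adjusted p = 1.31e-09). WASF3, of the WAVE complex, averaged 19.0 ± 0.581 CPM on day 6 and 2.03 ± 0.311 on day 0 (3.24, adjusted p = 3.73e-09). WIPF1 rose by 3.98 and FMNL1, a formin, by 2.54. WIPF1 needed later libraries to pass the filter on low counts, with 0.359 and 0.282 CPM in replicates 1 and 3 of day 0. Of 27 focal adhesion and LIM genes, 13 rose and 2 fell (48.1% and 7.41%, against 28.9% and 25.7% of all genes). Without replicate 2 of day 0, 13 rose and 4 fell, where 31.7% and 29.1% of all genes did. FERMT2, kindlin-2, which activates integrins, averaged 41.1 ± 2.07 CPM on day 6 and 8.1 ± 1.14 on day 0 (2.34, adjusted p = 1.46e-08), and TNS1, a tensin, averaged 20.1 ± 1.53 and 3.44 ± 0.508 (2.55, adjusted p = 3.93e-08). TNS4 rose by 2.10, to a mean of 4.06 CPM, and FHL1, which passed the filter only through later days, averaged 3.28 CPM on day 6 and 0.238 on day 0.

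Of 5 membrane linkers, 3 rose and 1 fell on day 6 (60.0% and 20.0%, against 28.9% and 25.7% of all genes). MISP rose by 1.54 on the log2 scale, MSN (moesin) by 0.72 and EZR (ezrin) by 0.18, and NF2 (merlin) fell by 0.39. The EZR call ended under 12 of its alternatives. Of the 6 tested genes of SRF and its cofactors, ELK3 rose to 40.0 ± 1.84 CPM on day 6, against 15.2 ± 1.55 on day 0 (1.39, adjusted p = 2.52e-07). SRF averaged 43.1 CPM on day 6 and 46.6 on day 0 (adjusted p = 0.347), MRTFA 56.6 and 57.7 (0.79), and MRTFB 72.3 and 81.6 (0.198). ELK1 averaged 58.3 CPM on day 6 and 67.8 on day 0 (0.0954), and ELK4 averaged 119.6 and 122 (0.776). Without replicate 2 of day 0, SRF, MRTFB and ELK1 were past it, with log2 fold changes of -0.21, -0.32 and -0.34. MYOCD, the muscle cofactor of SRF, had 0 counts in all libraries.

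**Figure D5:**
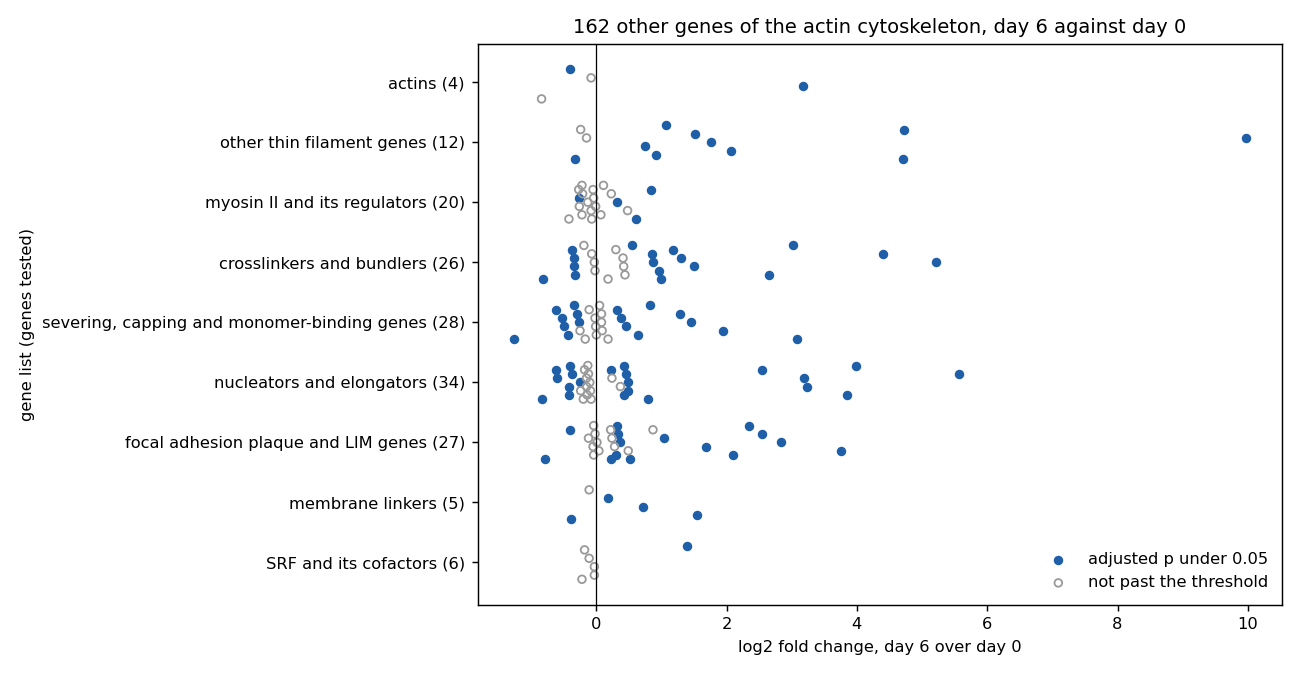
Log2 fold change for day 6 over day 0 (horizontal axis) of 162 genes of the actin cytoskeleton other than the 10, in 9 of the 10 lists (rows, with the number tested). Filled points had an adjusted p under 0.05 and open points did not; the point farthest right is TNNT3, whose fitted value rests on 0 counts on day 0 and is no bound.

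Markers of cell types were read beside these genes. Among all genes tested, 28.9% rose on day 6 against day 0 and 25.7% fell. Epithelial markers summed to 1657 to 1893 CPM on day 0, 1521 to 1613 on day 3 and 1701 to 1857 on day 6. CHGA, a defining marker of the labelled neuroendocrine type, had 0 counts in all libraries, and SYP, another, averaged 5.85 CPM on day 0, 4.79 on day 3 and 6.07 on day 6. Smooth muscle markers summed to 3.63 to 4.61 CPM on day 6 and 1.74 to 1.96 on day 0, and 2 of 3 tested rose. These were DES and ACTA2, which passed the filter on low counts only through later days, while MYH11 averaged 1.02 and 0.843. Among those too low to be tested, CNN1 had 24 pooled counts on day 6 and 28 on day 0, and ACTG2 had 14 and 23. MYOCD had no count. Striated muscle markers summed to 5.39 to 5.99 CPM on day 6 and 1.74 to 2.04 on day 0, with 3 of 5 tested rising. MYOD1 had 226 pooled counts on day 6 and 0 on day 0, TNNT2 had 88 and 26, and MYH7 had 15 and 1. All 3 needed later libraries to pass the filter, and MYH7 was highest on day 3, with 58 pooled counts. MYOG had 68 pooled counts on day 6 and 71 on day 0, and ACTA1 had 25 and 44, neither of them called. CKM and ACTC1, not tested, had 2 and 1 pooled counts on day 6. Fibroblast markers summed to 73.7 to 80.8 CPM on day 6 and 55.4 to 60.1 on day 0, mostly PDGFRA, with 3 of 4 tested rising and THY1 at 0. One that rose, PDGFRB, passed the filter only through later days. Endothelial markers summed to 9.15 to 12.6 CPM on day 6 and 2.49 to 3.4 on day 0, mostly TEK, and CDH5 averaged 0 on day 6. Leukocyte markers summed to 10.0 to 12.4 CPM on day 6 and 5.39 to 8.29 on day 0, and PTPRC, which defines leukocytes, averaged 0.444 and 0.516. The part of other cells in the levels of CALD1, LSP1 and TAGLN was not tested, and in bulk RNA more cells with a transcript and more transcript per cell cannot be told apart.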

How the data were processed

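Poly-A RNA of TYUC-1 cells was sequenced in 9 libraries, 3 each on days 0, 3 and 6. The deposited table holds the authors' estimated counts per gene symbol, whole in every cell and not scaled. Per the submitters' processing notes, the tools were bcl2fastq 2.19 and kallisto 0.44.0, with DESeq2 named as well, and the builds were GRCh38, GRCm38 and hg38, in no stated role. How transcripts were summed to genes and whether strand was used are not given in the sources used here. Kallisto shares reads among similar transcripts by estimation, so counts of near-identical copies are uncertain.

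All 9 libraries entered 1 edgeR 4.0.16 quasi-likelihood fit (R 4.3.3) with TMM scaling, a mean per day and filterByExpr (minimum count 10), which kept 15345 genes. P-values were adjusted by Benjamini-Hochberg with a threshold of 0.05. Levels are CPM on the TMM-scaled sizes of the kept genes. The test was checked on simulated counts. Other settings tried were scaling by library size or by the size factors of DESeq2 1.42.0, DESeq2's own test, limma-voom (limma 3.58.1), a filter at 5 CPM and none, a fit of the compared days alone, a replicate block, and each library left out.

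The 10 genes and all lists were chosen with earlier results of these data known. Beside the 10, each list gives up to 4 genes with the lowest p for day 6 against day 0 among those past the threshold (the SRF list in full), and each of the 10 gives its 2 nearest genes. Other genes were chosen after their values were seen. Values of 1 list and of some genes are not reported here.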

Additional observations from a re-analysis of the deposited data

How the results depend on the processing

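Of 455 refits of the log2 fold changes of the 10 genes, 442 moved by less than the SD between replicates and 13 by more, and none changed the sign of a called value. CALD1 on day 6 over day 0 was 6.16 without replicate 3 of day 0, and the other moves of CALD1, TAGLN and LSP1 are given above. With library size only, the median of all genes moved by 0.13 on the log2 scale for day 6 over day 0, TPM1 was at -0.22, TPM2 at 0.16, TPM4 at 0.14 and ACTN1 at -0.06, each with the sign it has under TMM. Calls of the 10 on the edge of the threshold were those of CALD1 and TAGLN on day 3 against day 0 (past it in 12 of 15 and 9 of 16 alternatives), LSP1 on day 3 against day 0 (past it in 17 of 18, and not when summed with LSP1P4), TPM2 on day 3 against day 0 and on day 6 against day 3 (11 and 10 of 17), ACTN1 on day 6 against day 3 (10 of 17) and FLNA on day 6 against day 0 (14 of 17). For the named genes of the lists, 63 refits lost a call, 39 gained one and none reversed.

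With library size only, 1825 genes were lower on day 3 than on day 0 (2780 with TMM), with 8 of the other actin genes (13 with TMM), and 21 actin genes were lower on day 6 than on day 0 (32 with TMM). The share of calls that were higher was then 66.6% for day 6 against day 0 and 69.2% for day 3 against day 0, where TMM gave 53.0% and 55.3%. Day 6 against day 3 gave 2497 calls. With a filter at 5 CPM it gave 1248 (826 higher, 422 lower), with 28 actin genes, 7 of them lower. Of the actin genes tested, 14.3% were then higher and 4.76% lower, against 7.48% and 3.82% of all genes. With the 2 days alone, day 6 against day 3 gave 4331 (1824 lower), with 23 actin genes lower. The cause of either was not tested. With the filter at 5 CPM, 55 of 147 actin genes were higher and 23 lower on day 6 than on day 0. These were 37.4% and 15.6%, against 27.6% and 25.9% of all genes. Whether replicate numbers pair the libraries is not stated. Deviations of same-numbered libraries from their day means correlated between -0.149 and 0.204. Between day 6 and day 0, the same-numbered values (0.0677, 0.149 and 0.2013) lay above the highest differently numbered values (-0.00225, -0.107 and 0.0548). That held only for replicate 1 between day 3 and day 0, and only for replicate 3 between day 6 and day 3. Correlations this weak, from so few libraries, cannot decide whether libraries were paired. With the replicate number as a block, the counts of genes higher and lower were 4394 and 3911 for day 6 against day 0. They were 3373 and 2740 for day 3 against day 0, and 1643 and 650 for day 6 against day 3.

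With each library left out in turn, genes lower on day 3 than on day 0 ranged between 1846 and 3370, and actin genes between 7 and 26. Calls on day 6 against day 3 ranged between 1606 and 4681 (348 to 2090 lower), and among actin genes between 25 and 66 (4 to 26 lower). The highest of each range came without replicate 2 of day 0, and the lowest came without replicate 1 or 2 of day 3.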
